A study of Mus musculus with 91 samples.

Results

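The 8 genes S100a8, S100a9, S100a1, S100a4, S100a6, S100a10, S100a11 and S100a13 encode S100 calcium-binding proteins, and were taken by symbol from a table of 23956 genes in 91 single cells of mouse bone marrow. All mice were C57BL/6 and carried the Gfi1 R412X allele over a minus allele (Gfi1-R412X/-) together with a single functional copy of Irf8 (Irf8+/-), so both groups share this genotype and no wild-type cells entered the comparison. GFI1 represses transcription and is required to make neutrophils, and IRF8 drives the monocyte and dendritic cell fates. Marrow cells were enriched for CD117, sorted as Lin- CD117+ Sca-1- CD34+ CD16/32high, and captured singly on a Fluidigm C1 chip. They were labelled GMP (granulocyte-monocyte progenitor, 46 cells) or CD11b+ GMP-P (45 cells), the latter a population that also carries the integrin CD11b. Because no animal is named in the labels, a population here counts as 1 sample made of many cells. The values below therefore describe these cells, with the SD over cells, and no p-value was made.

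S100 proteins are small EF-hand proteins that mostly work as dimers. Calcium changes their shape and exposes a surface that binds partner proteins. S100A8 and S100A9 pair to form calprotectin, which makes up much of the cytosol of a mature neutrophil, withholds zinc and manganese from microbes, and acts as an alarm signal when released. The other members are expressed in many tissues and have partners of their own. S100A10 binds annexin A2 without needing calcium, S100A11 binds annexin A1, S100A6 (calcyclin) binds CACYBP, S100A4 binds non-muscle myosin, S100A1 acts on calcium handling in muscle, and S100A13 takes part in the release of FGF1 and interleukin 1 alpha.

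All 8 genes lie on mouse chromosome 3. In the RefSeq gene order, S100a8 and S100a9 are direct neighbours, as are S100a11 and S100a10, and S100a1 overlaps S100a13. Of the 8 genes, 7 had a promoter window in the RefSeq table for build GRCm38.p6. That is not the build of the expression values (mm9), and the coordinates below are those of the RefSeq table. The windows of the calprotectin genes and of S100a11, the member expressed most evenly from cell to cell, are shown from 250 bases before the annotated start to 30 bases after it. They are printed 5′ to 3′ on the strand of the gene. Capitals mark 3 short motifs searched on both strands: a loose C/EBP motif (TTNNGNAA), the PU-box (GAGGAA) and the TATA box (TATAAA). The C/EBP proteins and PU.1 are transcription factors best known from granulocyte and monocyte genes.
S100a8, chr3:90668821-90669100, plus strand: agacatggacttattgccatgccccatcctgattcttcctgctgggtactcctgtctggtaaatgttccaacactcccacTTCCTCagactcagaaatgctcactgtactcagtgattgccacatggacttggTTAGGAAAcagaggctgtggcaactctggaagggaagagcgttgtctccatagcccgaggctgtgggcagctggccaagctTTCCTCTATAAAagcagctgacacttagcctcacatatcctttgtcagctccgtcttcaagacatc
S100a9, chr3:90695692-90695971, minus strand: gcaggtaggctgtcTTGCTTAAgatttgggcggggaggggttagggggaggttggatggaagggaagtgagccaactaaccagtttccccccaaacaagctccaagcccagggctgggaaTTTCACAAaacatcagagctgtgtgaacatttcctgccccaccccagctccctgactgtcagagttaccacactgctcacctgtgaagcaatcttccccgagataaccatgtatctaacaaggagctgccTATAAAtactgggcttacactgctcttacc
S100a11, chr3:93520246-93520525, plus strand: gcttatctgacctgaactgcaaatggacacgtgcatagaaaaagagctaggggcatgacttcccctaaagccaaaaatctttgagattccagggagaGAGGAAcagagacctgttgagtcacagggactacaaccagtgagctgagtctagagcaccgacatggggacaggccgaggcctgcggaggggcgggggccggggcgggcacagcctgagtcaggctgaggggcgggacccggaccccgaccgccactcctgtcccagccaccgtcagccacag
The S100a8 window held 1 C/EBP match, 2 PU-box matches and 1 TATA box. One PU-box match (positions -36 to -31, with +1 the first transcribed base) directly abuts the TATA box (-30 to -25), so the capitals of both run together there. The S100a9 window held 2 C/EBP matches and no PU-box match, and its only TATA box covered positions 1 to 6 of the annotated transcript. The S100a11 window held 1 PU-box match and neither of the other motifs. S100a4 had 1 PU-box match and 1 TATA box, and the windows of S100a1, S100a6 and S100a13 held none of the 3 motifs. The windows of S100a1 and S100a13 share 164 bases. Of 32851 RefSeq windows of the same length, 39.3% held the C/EBP motif, 25.98% the PU-box and 13.1% the TATA box, so single matches are common. These matches are a description of the letters and not of binding.

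The cells differed in complexity as well as in label. Genes above 0 numbered 5294 ± 801 (SD over 46 cells) in GMP and 4112 ± 953 (45 cells) in CD11b+ GMP-P. Of the gate genes, Itgam (CD11b) had a mean of 0.54 in GMP against 3.68 in CD11b+ GMP-P on the log2(TPM + 1) scale, and reached 10 TPM in 3 and 24 cells. Kit (CD117) averaged 3.65 and 0.90, Cd34 7.22 and 2.55, and Fcgr3 (CD16) 9.18 and 6.89. Ly6a (Sca-1), for which the gate was negative, reached 10 TPM in 40 and 41 cells. The list of late neutrophil granule genes also held the receptor gene Cxcr2. The summed level of its 10 genes had a median of 644 TPM in GMP and 96263 TPM in CD11b+ GMP-P. The summed level of 9 monocyte genes had medians of 593 and 39.1 TPM. Monocyte genes that reached 10 TPM included Ms4a6c in 36 GMP and 15 CD11b+ GMP-P cells, Irf8 in 35 and 18, F13a1 in 29 and 10, Ccr2 in 24 and 3, Klf4 in 16 and 14, Ly86 in 16 and 5 and Csf1r in 14 and 7. Of the macrophage genes, Vcam1 reached it in 5 and 10 cells and Emr1 in 5 and 0, while C1qa, C1qb and C1qc were at 0 in every cell. Of the 10 lymphoid genes, Nkg7 reached it in 44 and 32 cells and Cd79b in 25 and 10, and the other 8 were at 0 in every cell. The mast cell and basophil genes Hdc, Mcpt8 and Gata2 reached it in 39, 14 and 11 GMP cells and 24, 3 and 1 CD11b+ GMP-P cells, and the eosinophil gene Siglec5 in 6 and 3. The part of these genes in the S100 levels was not tested. The GMP cells carry the numbers 1 to 48 and the CD11b+ GMP-P cells 49 to 96 with different identifiers, so population and any processing batch cannot be told apart.

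The calprotectin genes were the members that differed most, and both were higher in CD11b+ GMP-P. Across GMP cells, S100a8 ran from 4.15 through a median of 8.45 to 15.04 on the log2(TPM + 1) scale. Across CD11b+ GMP-P cells it ran from 3.69 through a median of 16.83 to 17.61. The GMP cells were thus spread widely below 15.04, while 36 of the 45 CD11b+ GMP-P cells lay above the highest GMP cell. The mean level of S100a8 was 8.81 ± 3.48 in GMP against 15.44 ± 3.22 in CD11b+ GMP-P, which differ by +6.63.

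S100a9 was lower than S100a8 in GMP but came close to it in CD11b+ GMP-P. In GMP its lowest, median and highest levels were 2.96, 5.20 and 13.98. In CD11b+ GMP-P they were 2.89, 16.48 and 17.33, and again 36 cells were above the highest GMP cell. The mean level was 6.30 ± 2.97 in GMP against 14.71 ± 3.74 in CD11b+ GMP-P, which differ by +8.42. The filter used throughout for common detection, above 0 in 50% or more of either population's cells, left 5133 genes. By size of the increase among these, S100a9 ranked 1 and S100a8 ranked 5.

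On the linear scale, mean S100a8 was 3560 TPM in GMP and 97130 TPM in CD11b+ GMP-P, 27.3-fold higher. Mean S100a9 was 1130 and 77040 TPM, 68.2-fold higher. By mean TPM over all genes, S100a8 moved from rank 32 in GMP to rank 1 in CD11b+ GMP-P, and S100a9 from rank 141 to rank 2. S100a8 was the most abundant transcript of 34 of the 45 CD11b+ GMP-P cells and of 1 GMP cell.

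**Figure D1:**
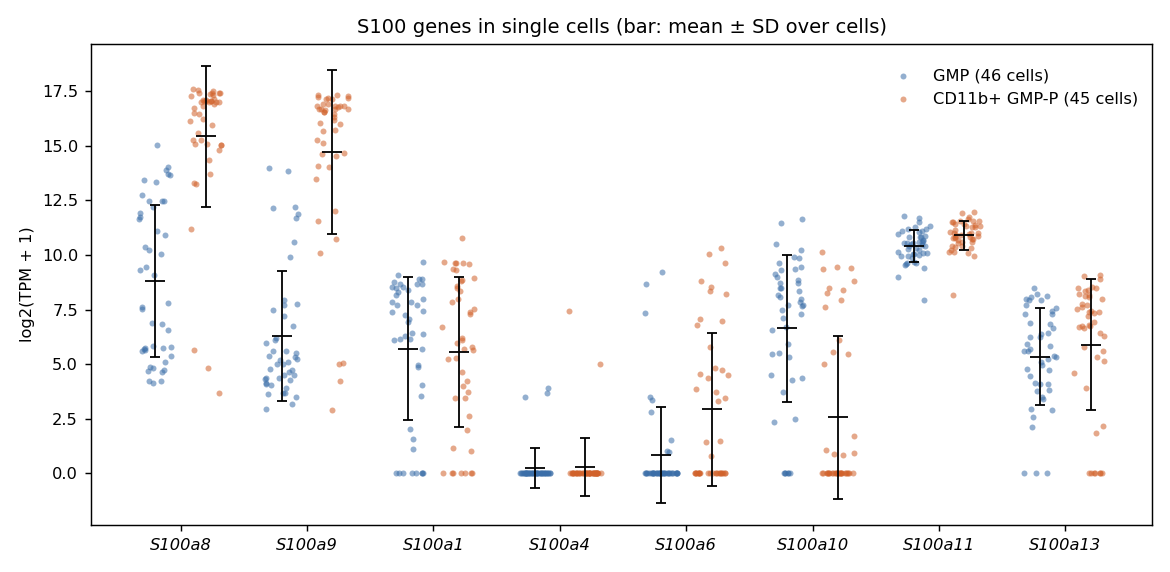
The vertical axis is log2(TPM + 1) and each point is 1 cell, for 8 S100 genes in GMP (blue, 46 cells) and CD11b+ GMP-P (orange, 45 cells). Black bars stand at the mean ± SD over cells, and S100a8 and S100a9 sit far higher in CD11b+ GMP-P, S100a10 sits lower, S100a11 forms a narrow band near 10.4 and 10.9, and S100a4 is at 0 in nearly every cell.

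These differences are set against a table in which most commonly detected genes were lower in CD11b+ GMP-P. Among the 5133 genes, 3.70% were higher by 1 or more on the log2 scale, 51.8% were lower by 1 or more, and the median difference was -1.05. After scaling by median of ratios, these were 6.78% and 35.4%, with a median of -0.63. Of the 8 members, 7 passed the detection filter, with S100a4 left out. S100a6 passed it only through CD11b+ GMP-P cells and S100a10 only through GMP cells. Of the 7, S100a8, S100a9 and S100a6 were higher, S100a10 was lower, and S100a1, S100a11 and S100a13 differed by less than 1. The count of members higher was 5 under median of ratios (S100a11 and S100a13 added), and 5 in a shared range of genes detected (26 GMP and 21 CD11b+ GMP-P cells with 3947 to 5645 genes) and without the 16 CD11b+ GMP-P cells of the cluster with the fewest genes (S100a1 and S100a13 added in both). The median difference was +0.52 over all 8 members and +0.27 over the 6 members outside calprotectin. Both stand above the median of the commonly detected genes. Relative to that median, S100a8 was +7.68, S100a9 was +9.46 and S100a10 was -3.02.

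TPM is a share of a fixed total, so the calprotectin genes can also be read as a part of each cell's transcripts. In GMP, S100a8 and S100a9 together held a median of 0.0398% of the summed TPM, from 0.00284% to 4.86%. In CD11b+ GMP-P they held a median of 21.2%, from 0.00184% to 36.03%. They held at least 5% of the total in 0 of 46 GMP cells (which allows a share of up to 6.52% of cells) and in 35 of 45 CD11b+ GMP-P cells (77.8%, exact Clopper-Pearson 95% interval 62.9% to 88.8%). In 8 CD11b+ GMP-P cells the pair held at least 30%. With cells limited to that shared range, the mean share in CD11b+ GMP-P was 10.9%, against 17.4% over all its cells. Such intervals cover counting error only.

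The other 6 members together held a similar part of the total in both populations, most of it S100a11, which averaged 1519 TPM in GMP against 2086 TPM in CD11b+ GMP-P. Their summed share was 0.224% ± 0.0803 of the transcripts in GMP and 0.273% ± 0.0885 in CD11b+ GMP-P. In single cells this share ran from 0.0957% to 0.406% in GMP and from 0.115% to 0.501% in CD11b+ GMP-P, so the populations overlapped over most of the range. The sum does not show the changes of S100a10 and S100a6 described further on. Within each cell, the log2 level of the pair minus that of the other 6 members was on average -1.79 ± 3.20 in GMP against 4.86 ± 3.28 in CD11b+ GMP-P, which differ by 6.65. The cell total cancels in this quantity. The typical GMP cell had less calprotectin transcript than the sum of the other members, and the typical CD11b+ GMP-P cell had far more.

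**Figure D2:**
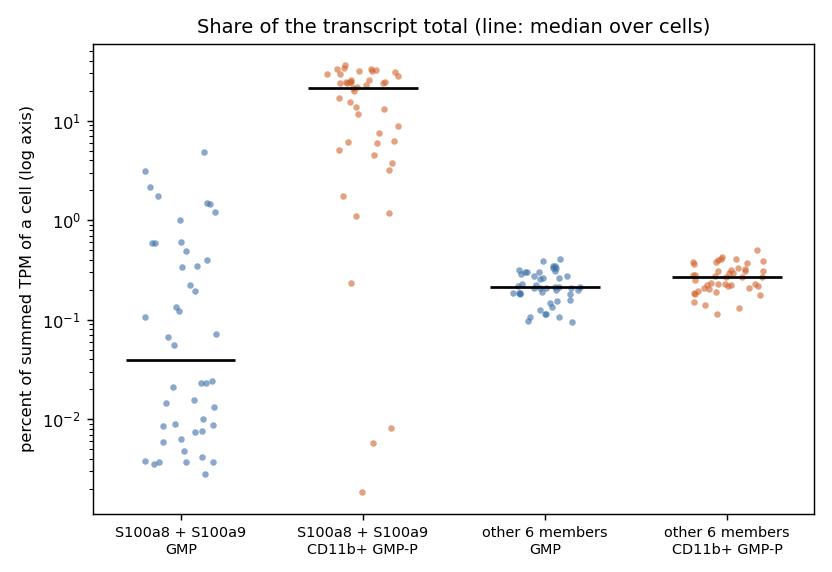
The vertical axis (logarithmic) is the percent of a cell's summed TPM, with 1 point a cell and a line at the median, for S100a8 plus S100a9 and for the other 6 members. The pair moves from a median of 0.0398% in GMP to 21.2% in CD11b+ GMP-P, while the other members stay between 0.0957% and 0.501% in all cells of both populations.

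The subunits of calprotectin were not at equal transcript levels in GMP. Among the 44 GMP cells with both genes at 10 TPM or more, the log2 level of S100a8 minus that of S100a9 had a median of 1.68 and ran from -1.81 to 7.30, with S100a8 higher in 40. Among the 44 such CD11b+ GMP-P cells the median was 0.37, from -0.19 to 6.97, with S100a8 higher in 42. The levels lay within 1 of each other in 13 of 46 GMP cells against 40 of 45 in CD11b+ GMP-P. All of these GMP cells except cell 39 had both genes under 100 TPM, where values need care, as described further on. They are therefore no sign of even expression. With both genes at 100 TPM or more, the GMP median was 2.76 (13 cells, S100a8 higher in 12, cell 39 the exception). The CD11b+ GMP-P median was then 0.37 (41 cells, S100a8 higher in 40). S100a8 exceeded S100a9 by more than 4 in 14 GMP cells and 1 CD11b+ GMP-P cell.

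A count of cells at 100 TPM shows the same order. In GMP, 13 cells had both transcripts at 100 TPM or more, 15 had S100a8 alone (32.6%, exact interval 19.5% to 48.02%), 1 had S100a9 alone and 17 had neither. In CD11b+ GMP-P, 41 had both, 1 had S100a8 alone, 0 had S100a9 alone (allowing up to 6.67%) and 3 had neither. At 1000 TPM the GMP counts were 7 cells with both, 13 with S100a8 alone, 0 with S100a9 alone and 26 with neither. Cells with S100a8 alone were thus common in GMP, and cells with S100a9 alone were nearly missing from both populations.

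The imbalance was not even along S100a8, in ranges chosen after the values were seen. In GMP it had a median of 0.49 in the 17 cells with S100a8 under 6, 2.47 in the 6 cells from 6 to 9, 5.54 in the 11 cells from 9 to 12 and 2.76 in the 11 cells from 12 to 15. The median S100a9 level in these ranges was 4.38, 4.63, 5.01 and 10.59. In GMP the median imbalance was therefore widest at middle levels of S100a8 and narrower above them. It was also smaller below them, but S100a8 under 6 lies below 100 TPM, where values need care. The median S100a9 levels of 4.63 and 5.01, in the ranges from 6 to 9 and from 9 to 12, lie below 100 TPM too. Whether the imbalance truly narrows at low S100a8 was not tested. In CD11b+ GMP-P the 5 cells from 12 to 15 had a median of 1.70 and the 36 cells from 15 to 18 a median of 0.33. The ranges contain S100a8 itself, so this order is a description only.

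**Figure D3:**
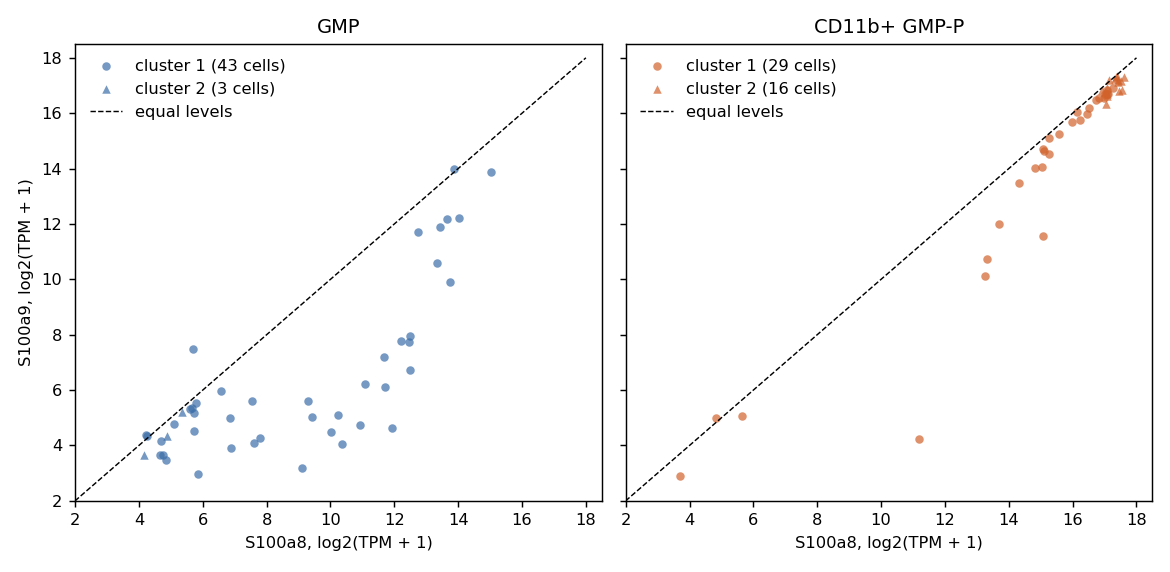
S100a8 (horizontal) is plotted against S100a9 (vertical), both as log2(TPM + 1), with 1 point a cell, a panel for each population and triangles for the second cluster of each. GMP cells run along the bottom, with S100a8 rising to about 12 at S100a9 levels near 5, and then turn upward below the dashed line of equal levels. CD11b+ GMP-P cells crowd at the upper end of that line.

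The low values need care. Every one of the 16 genes with a mean of at least 5000 TPM over all cells was above 0 in all 91 cells, S100a8 and S100a9 among them. The lowest S100a8 value was 0.0240% of the S100a8 mean across the 91 cells and the lowest S100a9 value 0.0166%. The late granule genes Camp and Ngp had similar lowest values, 0.0134% and 0.0136%. S100a9 lay under 0.2% of its mean (77.3 TPM) in 32 of 46 GMP cells and S100a8 under 0.2% of its own (99.7 TPM) in 18. Camp and Ngp lay under that level in 43 and 45 GMP cells. Whether values this low are transcripts of the cell itself was not tested. Cells counted at 100 TPM or more lie above this level for both genes.

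S100a10 went the other way. S100A10 has lost the ability to bind calcium and works with annexin A2 at membranes. In GMP its level ran from 0 through a median of 7.69 to 11.64, and in CD11b+ GMP-P from 0 through a median of 0 to 10.15. It reached 10 TPM in 38 of 46 GMP cells (82.6%, exact interval 68.6% to 92.2%) and in 14 of 45 CD11b+ GMP-P cells (31.1%, 18.2% to 46.6%). The populations overlapped, with quartiles of 4.70 and 8.96 in GMP and of 0 and 5.54 in CD11b+ GMP-P. The mean was 6.63 ± 3.35 in GMP against 2.56 ± 3.73 in CD11b+ GMP-P, which differ by -4.07. The size of the difference depended on which cells were compared: it was -1.43 over cells of the shared range and -1.84 as a log2 ratio of mean TPM. Its partner Anxa2 did not follow it: the mean level of Anxa2 was 6.58 ± 3.42 in GMP against 7.52 ± 3.41 in CD11b+ GMP-P. Across cells, Spearman's rho of S100a10 with Anxa2 was 0.03 in GMP (46 cells) and -0.26 in CD11b+ GMP-P (45 cells).

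S100a10 was listed at 0 only in cells with much S100a8. All 6 GMP cells without S100a10 had S100a8 of at least 11.67, and all 26 such CD11b+ GMP-P cells had S100a8 of at least 13.27. Only 4 of the 45 CD11b+ GMP-P cells had S100a8 under 12, so nearly all cells of that population met this bound. In ranges chosen after the values were seen, S100a10 reached 10 TPM in 32 of the 34 GMP cells with S100a8 under 12 (94.1%, exact interval 80.3% to 99.3%) and in 6 of the 12 above it (50%, 21.1% to 78.9%). In CD11b+ GMP-P it reached 10 TPM in 4 of 4 cells under 12, in 10 of 21 between 12 and 17 (47.6%, 25.7% to 70.2%), and in 0 of 20 above 17 (allowing up to 15%). The intervals for cells between 12 and 17 are wide, and most GMP cells there lie under 15 and most CD11b+ GMP-P cells above it. These ranges share the cells' total and their gene counts, and no test was made of them.

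**Figure D4:**
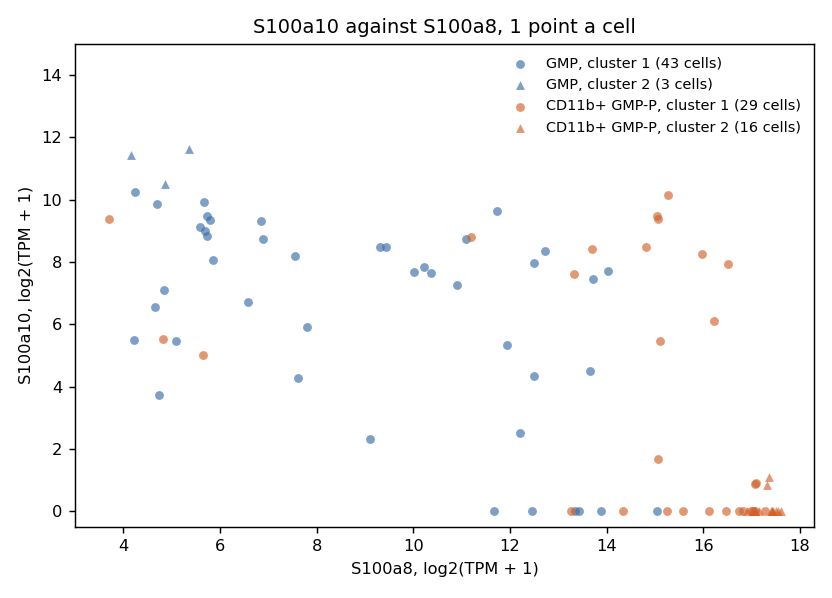
S100a8 (horizontal) is plotted against S100a10 (vertical), both as log2(TPM + 1), with 1 point a cell, GMP in blue, CD11b+ GMP-P in orange and triangles for the second cluster of each. The lower left corner is empty: every cell listed at 0 for S100a10 has S100a8 of at least 11.67, and no cell above 17 for S100a8 reaches 10 TPM of S100a10.

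S100a6, or calcyclin, was found in more CD11b+ GMP-P cells. It was above 0 in 9 cells of GMP against 23 of CD11b+ GMP-P, and reached 10 TPM in 4 (8.7%, exact interval 2.4% to 20.8%) and 18 (40%, 25.7% to 55.7%). Its level ran from 0 to 9.21 in GMP with a median of 0, and from 0 to 10.32 in CD11b+ GMP-P with a median of 0.78. The mean was 0.84 ± 2.20 and 2.92 ± 3.51, a difference of +2.09, which became +1.05 over cells of the shared range and +1.06 without the CD11b+ GMP-P cluster with the fewest genes. S100a6 was thus a gene of some cells only, even where it was more frequent.

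S100a11 was the steadiest member. It was above 0 in all 91 cells, with levels from 7.93 through a median of 10.46 to 11.80 in GMP and from 8.17 through 10.94 to 11.96 in CD11b+ GMP-P. The groups overlapped almost fully, with means of 10.41 ± 0.73 and 10.90 ± 0.66 and a difference of +0.50. In mean TPM, which is per length, it was the second most abundant member of the 8 in GMP, below S100a8 and above S100a9, at 1519 TPM. By median TPM it was the highest member there, at 1410 against 385 for S100a8. In CD11b+ GMP-P it averaged 2086 TPM, below both calprotectin genes. Its call depended on scaling: the difference was +1.45 after scaling by median of ratios and +1.09 after scaling without the 50 highest genes. Mouse S100a11 has a pseudogene copy, so its reads could have been split.

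The annotated extents of S100a1 and S100a13 overlap head to head, in a build other than that of the expression values. From the starts used for the promoter windows, however, these genes run away from each other and share no transcribed bases. The libraries do not mark strand, so reads in any shared stretch cannot be told apart. S100a1 ran from 0 through a median of 7.01 to 9.68 in GMP and from 0 through 5.98 to 10.76 in CD11b+ GMP-P, with means of 5.70 ± 3.28 and 5.57 ± 3.42. S100a13 ran from 0 through 5.61 to 8.49 and from 0 through 6.95 to 9.09, with means of 5.34 ± 2.22 and 5.89 ± 2.99. S100a1 reached 10 TPM in 35 and 32 cells and S100a13 in 38 and 36. The differences were -0.13 for S100a1 and +0.55 for S100a13, each well inside the SD over cells. The sign of S100a1 was not stable: it was +0.47 with median of ratios, and without the 16 CD11b+ GMP-P cells of the cluster with the fewest genes S100a1 was +1.24 and S100a13 +1.42. The levels of S100a1 and S100a13 did not follow each other across cells, with Spearman's rho of -0.10 in GMP and 0.06 in CD11b+ GMP-P.

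S100a4 was nearly missing. It was above 0 in 3 GMP and 2 CD11b+ GMP-P cells, with highest levels of 3.91 and 7.46. The difference was +0.03, and its sign changed with the pseudocount. A further 9 S100 genes of the table were at 0 in every cell: S100a2, S100a3, S100a5, S100a7a, S100a14, S100a16, S100b, S100g and S100z. In mean TPM, the members ranked S100a8, S100a11, S100a9, S100a10, S100a1, S100a13, S100a6 and S100a4 in GMP. In CD11b+ GMP-P the order was S100a8, S100a9, S100a11, S100a1, S100a13, S100a10, S100a6 and S100a4. In the second order S100a13, S100a10 and S100a6 had mean TPM of 162, 117 and 114. Those of S100a10 and S100a6 came from few cells: 36, 14 and 18 cells reached 10 TPM, and the median log2 levels were 6.95, 0 and 0.78. The GMP order by mean also leaned on high cells: S100a8 reached 1000 TPM in 20 of 46 cells and S100a9 in 7. By median TPM, GMP ran from S100a11 (1410) through S100a8 (385), S100a10 (206), S100a1 (128) and S100a13 (47.7) to S100a9 (35.8). The GMP medians of S100a6 and S100a4 were 0.

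Each population was clustered alone, without any S100 gene, to describe how the members varied inside it. GMP fell into 43 cells and 3 cells. The 3 cells were led by Cpa3 and Gata2, genes of mast cells and basophils, and had a median of 3067 genes above 0 against 5547 in the 43. They had the lowest mean S100a8 (4.79 ± 0.61) and the highest mean S100a10 (11.20 ± 0.60) of any cluster, and S100a1 was listed at 0 in all 3. The other 43 GMP cells averaged 9.09 ± 3.43 for S100a8 and 6.32 ± 3.23 for S100a10, so most of the spread of both genes in GMP lay inside that cluster. The GMP clusters depended on the setting: with 5 principal components in place of 10 the cluster means of S100a8 differed by 0.86, against 4.30 here.

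CD11b+ GMP-P fell into 29 cells led by Elane, Srgn, Nkg7, Mpo and Ctsg and 16 cells led by Ltf, Ngp, Camp, Cd177 and Ifitm6. Elane, Mpo and Ctsg encode primary granule proteins made at the promyelocyte stage, and Ltf, Ngp and Camp encode granule proteins made later. In the 16 cells S100a8 was 17.27 ± 0.22, from 16.91 to 17.61, and S100a9 was 16.98 ± 0.30. In the 29 cells S100a8 was 14.43 ± 3.65 and S100a9 13.46 ± 4.17. The pair held a median of 30.3% of the transcripts in the 16 cells and 7.48% in the 29. The calprotectin genes were therefore both high and nearly uniform in the 16 cells, and spread widely in the 29. Median genes above 0 were 3245 in the 16 cells and 4586 in the 29, and its part in the levels was not tested.

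The remaining members also had unlike frequencies in these clusters. S100a10 reached 10 TPM in 14 of the 29 cells (48.3%, exact interval 29.4% to 67.5%) and in 0 of the 16 (allowing up to 18.8%). S100a1 reached it in 26 of 29 (89.7%, 72.6% to 97.8%) and 6 of 16 (37.5%, 15.2% to 64.6%), and S100a13 in 27 of 29 and 9 of 16. S100a6 reached it in 8 of 29 (27.6%, 12.7% to 47.2%) and 10 of 16 (62.5%, 35.4% to 84.8%). S100a11 averaged 10.87 ± 0.70 and 10.96 ± 0.60. S100a6 was thus seen more often in the 16 cells, S100a10, S100a1 and S100a13 more often in the 29, and S100a11 was level. How many transcripts were missed in the 16 cells, which had fewer genes above 0, was not tested.

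The 4 CD11b+ GMP-P cells with the least S100a9 were all in the cluster of 29, and all 4 had S100a10 at 10 TPM or more. Cell 73 had S100a8 at 3.69 and S100a9 at 2.89, cell 59 had 4.81 and 5.01, and cell 67 had 11.20 and 4.23. Cell 76 had 5.65 and 5.05 together with Prg2 at 16.97 and Epx at 11.13, eosinophil granule genes, and it held S100a11 at 11.91. Itgam was listed at 0 in cells 59, 67 and 73 and at 0.29 in cell 76. This was not particular to them: it was listed at 0 in 11 of the 29 cells, among them cell 64 with S100a8 at 16.22. Leaving out cell 76 and the 3 GMP cells led by Cpa3 changed the differences of S100a8 and S100a9 to +6.57 and +8.50.

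In the larger cluster of each population, the relation of the calprotectin genes to Elane had opposite signs. That to Lcn2 had the same sign. So did that to Camp, but in GMP it rested on low Camp values. Correlations here are Spearman's rho across cells, which share libraries and totals, and are given as a description. In the 43 GMP cells, S100a8 rose with Elane (rho 0.79) and with 1100001G20Rik (0.84), less with Lcn2 (0.59) and only weakly with Camp (0.29). In the same cells S100a9 had about equal values with Elane (0.51), Camp (0.50) and Lcn2 (0.50). Across these 43 cells Camp had a median of 3.35 and a highest level of 6.90, and S100a9 had a median of 5.33. Values this low need care, as described above. Whether the GMP relations with Camp reflect transcripts of the cell itself was not tested. In the 29 CD11b+ GMP-P cells, S100a8 rose with Lcn2 (0.95) and Camp (0.85) and ran against Elane (-0.47). In these 29 cells S100a9 had 0.94 for Lcn2, 0.85 for Camp and -0.48 for Elane. In the 16 cells, where S100a8 hardly varied, no relation of S100a8 with these genes exceeded 0.38 in size, and that with Lcn2 was negative (-0.26). S100a8 ran against the number of genes above 0 in the 29 cells (-0.48) and hardly with it in the 43 GMP cells (0.12).

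S100a8 and S100a9 followed each other with rho 0.74 in the 43 GMP cells, 0.98 in the 29 cells and 0.47 in the 16. S100a10 ran against S100a8 in the 43 GMP cells (-0.47) and the 29 CD11b+ GMP-P cells (-0.51), and with Irf8 in both (0.45 and 0.61). These values include ties at 0: S100a10 was at 0 in 6 and 12 of these cells and Irf8 in 3 and 8. S100a8 itself ran against Irf8 (-0.30 and -0.62), and its rho with Gfi1 was 0.51 and -0.11. Irf8 and Gfi1 are the genes altered in these mice. S100a11 rose with S100a8 in both clusters (0.51 and 0.52) although its level hardly changed. In the 45 CD11b+ GMP-P cells together, S100a1 ran with the number of genes above 0 (0.54).

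**Figure D5:**
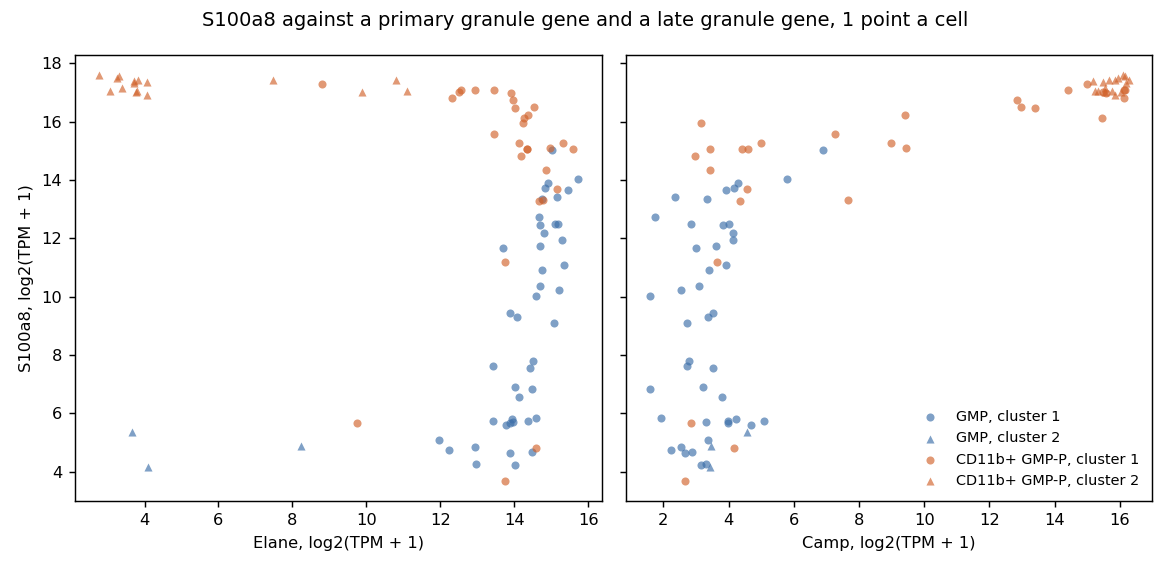
S100a8 (vertical) is plotted against Elane (left) and Camp (right), all as log2(TPM + 1), with 1 point a cell, GMP in blue, CD11b+ GMP-P in orange and triangles for the second cluster of each. S100a8 spans its whole range in GMP cells that all have high Elane and low Camp, except for 3 Elane-low cells at the lower left. It is at its highest in CD11b+ GMP-P cells that have little Elane and hold Camp near 16.

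By pooled rank correlation over all cells of a population, the genes most like each member were as follows. In GMP, over 4994 genes, S100a8 was nearest to 1100001G20Rik (0.84), Elane (0.82) and Dstn (0.74), and S100a9 to Anxa1 (0.64), Gca (0.60) and Dstn (0.60). Anxa1 encodes annexin A1, Gca the calcium-binding protein grancalcin and Dstn an actin-severing protein. Among the genes nearest to S100a10 were Ly6e (0.54) and Zbtb6 (0.48). S100a11 was nearest to Mgam (0.63), Srpk2 (0.54) and 1100001G20Rik (0.54). S100a1 was nearest to Polr1c, Gmip and Orc2 (0.57 to 0.52), and S100a13 to Gna13, Tlk1 and Nfu1 (0.45 to 0.42).

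In CD11b+ GMP-P, over 3307 genes, S100a8 was nearest to Lcn2 (0.88), Ngp (0.87) and Camp (0.85), and S100a9 to Lcn2 (0.91), Ngp (0.87) and 1100001G20Rik (0.83). Lcn2, Ngp and Camp all encode late granule proteins. S100a6 was nearest to Gpsm3 (0.58), Lyz2 (0.57) and Itgam (0.55), the last being the gene of the sort marker. S100a1 was nearest to Rps13, Cct5 and N6amt1 (0.62 to 0.58), S100a11 to Mettl9, Slfn2 and 1100001G20Rik (0.58 to 0.43), and S100a13 to Hiatl1, Ctdspl2 and Dpf2 (0.51 to 0.48). The share of genes with a correlation of more than 0.5 in size was 1.20% for S100a8 in GMP and 17.02% in CD11b+ GMP-P. For S100a13 it was 0.0601% and 0.0302%. These shares pool both clusters of a population, and in all 45 CD11b+ GMP-P cells S100a8 had a rho of -0.76 with the number of genes above 0.

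Genes of proteins that S100 members bind formed a list of 16, of which 9 passed the detection filter, 3 higher, 4 lower and 2 within 1, with a median difference of -0.93. Over all 5133 genes 3.70% were higher and 51.8% lower, so the number lower is near the background. Anxa1, the partner of S100A11, went from 9.92 ± 2.48 in GMP to 12.42 ± 1.37 in CD11b+ GMP-P (+2.50). Anxa11, an annexin that binds S100A6, was +1.27, and Myh9, the myosin heavy chain bound by S100A4, was +1.13. Anxa11 passed the filter only through CD11b+ GMP-P (above 0 in 14 GMP and 30 CD11b+ GMP-P cells). Cacybp, the calcyclin-binding protein, was the lowest at -3.61, from 7.03 ± 2.20 to 3.42 ± 3.26, while S100a6 was higher. Ppp5c was -2.05, Anxa6 -1.34 and Sugt1 -1.08, and Anxa2 and Atp2a2, a calcium pump, were +0.93 and -0.93. Ppp5c passed the filter only through GMP (above 0 in 36 GMP and 18 CD11b+ GMP-P cells). Fgf1, Il1a, Syt1 and Kcnk3 were at 0 in every cell, among them the cargo genes of S100A13.

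Receptors and signalling genes of calprotectin formed a list of 11, of which 4 passed the filter, 1 higher, 1 lower and 2 within 1, with a median difference of -0.07, against 3.70% higher and 51.8% lower over all 5133 genes. Cd33, a sialic acid receptor bound by S100A9, was +1.78, from 1.07 ± 2.42 to 2.85 ± 3.33, and passed the filter only through CD11b+ GMP-P (above 0 in 16 and 28 cells). Bsg, which encodes basigin, was -1.76, from 6.49 ± 2.46 to 4.73 ± 3.21. Myd88, the adaptor of Toll-like receptors, was -0.03 and Nptn, a basigin relative, -0.12. Tlr4, the receptor best known for S100A8, reached 10 TPM in only 4 GMP and 6 CD11b+ GMP-P cells, and its co-receptor gene Ly96 in 4 and 1. Ager, Cd36 and Mcam were at 0 in every cell. Transcripts of the Toll-like and RAGE receptors of calprotectin were thus rare or listed at 0 in both populations.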

How the data were processed

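Per the labels' protocols, single cells were lysed on a Fluidigm C1 chip, cDNA was made with the SMARTer kit, and Nextera XT libraries were read as pairs of 150 bp. Per the submitters' processing notes, RSEM (no version stated) and build mm9 were used. Aligner and gene annotation: not given in the sources used here. The authors deposited 1 table on a log2 scale; back on the linear scale each cell summed to between 999999.5 and 1000076, which identifies log2(TPM + 1). TPM keeps no depth, so genes above 0 per cell stand for precision, and a 0 can be a missed transcript. The libraries carry no molecular identifiers.

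The members and lists were chosen with earlier results of these data known. The main value was the mean log2(TPM + 1) over CD11b+ GMP-P cells minus that over GMP cells, called from 1, with no test because each population is 1 sample. Intervals on shares of cells are exact Clopper-Pearson ones at 95%. For a count of 0, the share it allows is 3 counts of the total, which is slightly under the upper exact limit. Clusters came from the 500 most variable genes above 0 in 20% of a population's cells, without S100 genes, by 10 principal components and Ward linkage, with 2 to 5 clusters by silhouette. Partner and receptor genes were named when above 0 in 50% of the cells of a population, and 3 nearest genes per member by Spearman's rho among genes passing that filter. One of the nearest genes is not reported here. Marker genes of other cell types were named at 10 TPM in 10% of a population's cells; C1qa, C1qb, C1qc, Prg2 and Epx, and gate and granule genes chosen for illustration, were named after their values were seen. Cells 59, 67, 73 and 76 and the ranges of S100a8 were chosen after the values were seen. No cell was left out and no doublet caller was run. Calculations were tested on simulated data (Python 3.11.15, numpy 2.4.6, pandas 2.3.3, scipy 1.17.1, scikit-learn 1.9.0).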

Additional observations from a re-analysis of the deposited data

How the results depend on the processing

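In the settings tried, S100a8, S100a9 and S100a6 stayed higher in CD11b+ GMP-P by 1 or more and S100a10 stayed lower by 1 or more. S100a8 ranged from 4.77 to 7.57, S100a9 from 6.09 to 9.35, S100a6 from 1.05 (shared range of genes detected) to 3.13 (pseudocount of 0.1) and S100a10 from -5.63 (pseudocount of 0.1) to -1.43 (shared range). The pair against the other members ranged from 4.93 (log2 ratio of mean TPM) to 6.99 (without the 5% of cells with the most genes), and from 6.53 to 6.91 when each cell was left out in turn. S100a4 was 1.63 as a log2 ratio of mean TPM, resting on 2 CD11b+ GMP-P cells above 0, and S100a11 was 1.45 with median of ratios. The count of members higher was 5 with median of ratios, 5 in the shared range of genes detected (26 GMP and 21 CD11b+ GMP-P cells) and 5 without the CD11b+ GMP-P cluster with the fewest genes, an alternative chosen after seeing the data. It was 4 as a log2 ratio of mean TPM, with S100a4 counted although S100a4 did not pass the detection filter. It was also 4 without the 50 highest genes, and 3 under every other setting run. The cause was not tested. S100a1 was 1.496 in that shared range and 1.24 without that cluster. The commonly detected genes higher and lower by 1 or more were 1.60% and 24.4% with a pseudocount of 10, 5.03% and 66.6% with 0.1, 5.96% and 28.5% as ratios of means, 8.03% and 27.0018% in the shared range and 4.403% and 30.8% without that cluster. Without the 50 highest genes they were 5.77% and 46.4%. No paired analysis was possible because the labels name no animal. Without counts the depth of a cell is unknown, which limits every 0.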
